A study of Mus musculus with 12 samples.

Results

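The genes described here are the nucleoporins and the transport receptors of the nuclear pore. They were taken as the array features whose gene name begins with Nup, Kpna, Kpnb, Ipo or Xpo followed by a digit or the letter t, and they comprised 41 genes on 71 probes, of 50090 gene names and 61307 probes in all. There were 21 Nup genes, 7 Kpna and Kpnb genes, 7 Ipo genes and 6 Xpo genes. A gene with several probes was represented by its brightest probe over all arrays. Of the 41 genes, 39 were tested, and the probes of Kpna7 and Nup62cl were not well above background on any array.

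RNA was measured on 12 one-colour arrays of resting B (RB) cells from spleens of female BALB/c mice aged 6 weeks, after 4 h of culture. The 6 groups, of 2 arrays each, were unstimulated cells and cells given Pam2CSK4, a synthetic lipopeptide that engages Toll-like receptor 2, anti-CD86 antibody, both of these (TLR2.CD86), anti-CD40 antibody, or anti-CD40 together with Pam2CSK4 (anti-CD40+Pam2CSK4). No group carried a genetic change, and the comparisons ask how the transport machinery responds to each signal alone and in combination. The cells had been enriched by removing cells that carry CD43, so other spleen cells could remain. The labels number the samples of a group without saying whether they came from separate mice, so the p-values measure the spread between these samples.

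The nuclear pore is a ring of nucleoporins set into the nuclear envelope. An outer ring (the Y-complex) and an inner ring form its scaffold, and nucleoporins rich in phenylalanine-glycine repeats fill its central channel. Importin alpha proteins bind the nuclear localisation signal of a cargo and hand it to importin beta, other members of the importin beta family bind cargo directly, and exportins carry proteins and RNA outwards under the control of the small GTPase Ran. In lymphocytes the entry of transcription factors after receptor engagement, and the growth that precedes division, both pass through this machinery.

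A level is log2 of the processed signal minus the log2 75th percentile of the same array, so a gene at 0 lies at that percentile. A difference between groups was called where limma's moderated test over all 12 arrays gave an adjusted p under 0.05, with Benjamini-Hochberg adjustment over 31601 probes. Of the 39 tested genes, 37 were well above background on all 12 arrays and 30 had a mean level above the 75th percentile of their arrays. The shares of all probes given below include dimmer probes. A fit of the 25973 probes well above background on all 12 arrays called more. Against unstimulated cells it called 16.6% for TLR2.CD86, 22.5% for anti-CD40 and 22.6% for anti-CD40+Pam2CSK4. For anti-CD40+Pam2CSK4 against TLR2.CD86 it called 15.9%, and over the 6 groups 27.3%. Levels of different probes depend on the probe and were not compared with each other.

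The arrays lay on 2 slides, which touches every result below. Slide 1 held 8 arrays, among them both unstimulated and both anti-CD40+Pam2CSK4 arrays, and slide 2 held the second replicate of the other 4 groups. In these 4 groups the slide 2 array was the lower for 38 of 39 genes with Pam2CSK4, 32 with anti-CD86, 36 with TLR2.CD86 and 36 with anti-CD40, with medians of -0.22, -0.17, -0.27 and -0.30. Between the 2 unstimulated arrays the median difference was 0.0043, and between the 2 anti-CD40+Pam2CSK4 arrays it was -0.0059. Over 25973 probes well above background on all arrays, the slide 2 array was the lower for 72.2%, 65.9%, 70.6% and 69.9%, in the same order. The medians of the 4 split groups over these probes were from -0.21 to -0.10. The difference between anti-CD40+Pam2CSK4 and unstimulated cells is therefore within slide 1. Without a block, its SE and p still rest on a spread pooled over all 6 groups. That spread includes the slide difference of the 4 split groups. For the other comparisons the counts with slide as a block are given beside the share of all probes called in the same fit. A call under that block is read against those shares, which are higher throughout.

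**Figure D1:**
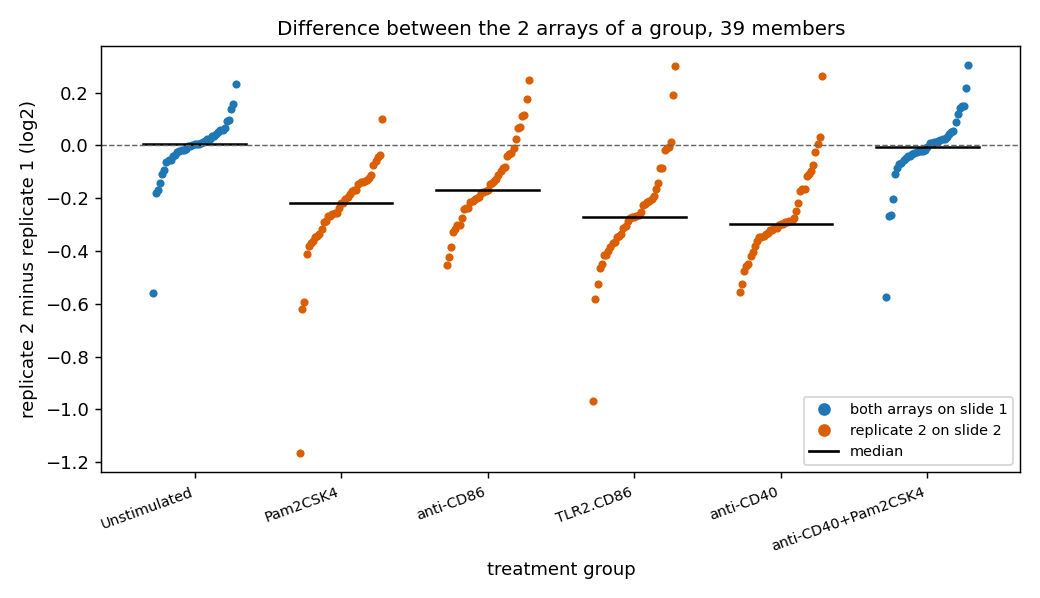
Level of each of 39 genes on the replicate 2 array minus the replicate 1 array of the same group, in log2 units (1 point per gene, sorted, black line for the median). The points of the 4 groups whose replicate 2 lay on slide 2 sit mostly below 0, and those of both groups with all arrays on slide 1 are centred near 0.

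Markers of B cells were present throughout, since all 8 listed markers, among them Ms4a1 and Cd79b, were well above background on all 12 arrays. Of the T cell list 5 of 6 were so, of the NK cell list 3 of 4, of the myeloid list 6 of 6, of the red cell list 3 of 4 and of the plasma cell list 4 of 4. The summed myeloid level was 8.18 to 8.19 in unstimulated cells, against 7.20 to 7.37 with TLR2.CD86 and 7.54 to 7.59 with anti-CD40+Pam2CSK4, on the log2 scale. The summed NK level was 3.36 to 3.37, against 2.75 to 2.86 and 3.10 to 3.21, and the summed T cell level was 3.85 to 3.87, against 3.22 to 3.65 and 3.69 to 3.73. The summed plasma cell level was 3.82 to 3.85, against 3.13 to 3.51 and 3.22 to 3.32, and that of red cells was 6.41 in unstimulated cells, against 6.32 to 6.73 and 6.68 to 6.69. The B cell sum was 9.04 to 9.17, against 9.01 to 9.21 and 9.42 to 9.54. With anti-CD40 alone the sums were 7.27 to 7.54 for myeloid, 2.86 to 3.06 for NK, 3.33 to 3.73 for T cell, 3.11 to 3.48 for plasma cell, 6.11 to 6.52 for red cell and 9.06 to 9.31 for B cell markers. The part of these cells in the results below was not tested, and a smaller share of a cell type cannot be told apart from less RNA per cell.

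**Figure D2:**
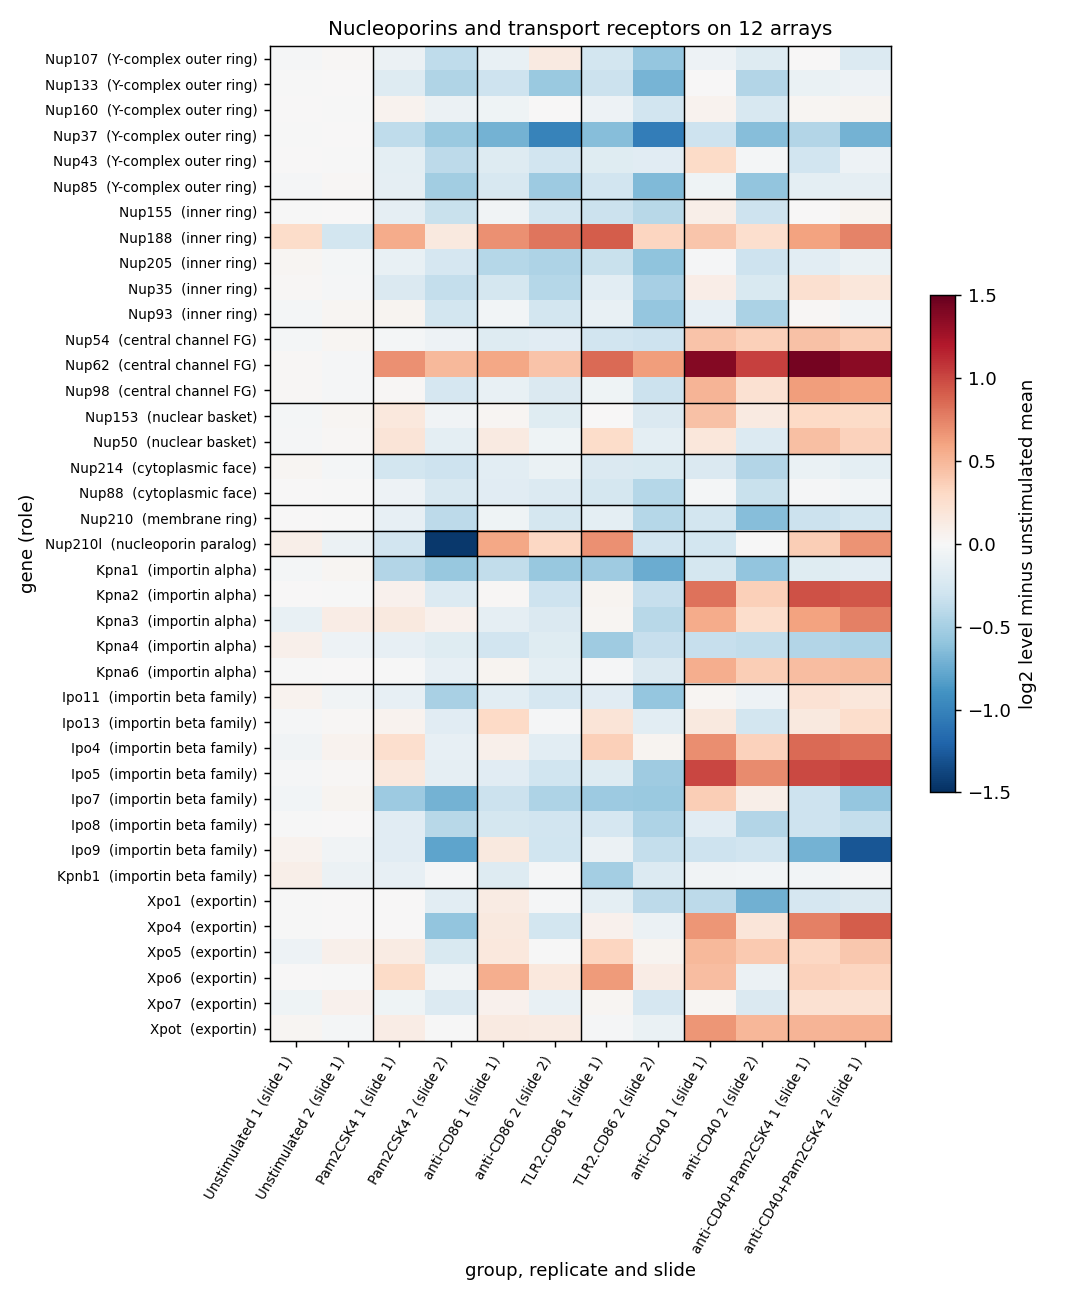
Level of 39 nucleoporins and transport receptors (rows, grouped by role) on each of 12 arrays (columns, by group, replicate and slide), as the log2 difference from the mean of both unstimulated arrays. Nup62 is red in every stimulated group, and Ipo4, Ipo5, Kpna2 and Xpot are red in both groups that received anti-CD40.

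Across all 6 groups, 10 of 39 genes differed by limma's moderated F test, or 25.6% of them, against 20.1% of all probes tested. They were the channel nucleoporins Nup54, Nup62 and Nup98, the importin alpha genes Kpna2, Kpna3 and Kpna6, the importin beta family genes Ipo4, Ipo5 and Ipo7, and Xpot. The range between the highest and the lowest group mean had a median of 0.51 over the 39 genes and 0.68 over all probes tested. It was widest for Nup62, at 1.39, and narrowest for Nup160 of the Y-complex, at 0.22. Without 1 array of either unstimulated or anti-CD40+Pam2CSK4 cells 3 or 4 genes were called, against 6.74% to 7.94% of all probes, and 7 without either anti-CD86 array, against 12% of all probes.

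The group with the highest mean was anti-CD40+Pam2CSK4 for 18 of 39 genes and unstimulated for 13. Over all probes tested these shares were 24.9% and 27.5%. TLR2.CD86 was the lowest group for 20 of the 39, against 16.8% of all probes. On the slide 1 arrays alone, anti-CD40+Pam2CSK4 was highest for 11 genes and TLR2.CD86 lowest for 15, against 23.8% and 15.6% of probes, while unstimulated cells were highest for as many as 11 and lowest for 10, and anti-CD40 was highest for 10. These counts describe the arrays and carry no test.

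Nup62 is a channel nucleoporin whose repeats bind transport receptors. Its level was 3.04 and 3.01 in unstimulated cells, 3.71 and 3.51 with Pam2CSK4, 3.60 and 3.45 with anti-CD86, and 3.87 and 3.65 with TLR2.CD86. With anti-CD40 it was 4.40 and 4.05, and with anti-CD40+Pam2CSK4 it was 4.46 and 4.38. Every stimulated array lay above both unstimulated arrays, and the arrays of the groups with anti-CD40 lay above all others. The array carried 1 probe for this gene, and the first 30 of its bases, shown because the widest response in the family rests on it, are these:
Nup62 probe, bases 1 to 30: ttgttgagaaaaatgctctttgttttgatt

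Nup62 rose in 3 comparisons with unstimulated cells. The rise was 0.73 ± 0.15 (log2, SE) for TLR2.CD86 (limma adjusted p = 0.0276; 0.85 and 0.000869 with slide as a block), 1.20 ± 0.15 for anti-CD40 (adjusted p = 0.00386; 1.32 and 0.000126 with slide as a block) and 1.39 ± 0.15 for anti-CD40+Pam2CSK4 (adjusted p = 0.0011), the last being a 2.63-fold higher signal. With Pam2CSK4 alone the difference was 0.58 (adjusted p = 0.171) and with anti-CD86 alone 0.50 (adjusted p = 0.11), and with slide as a block both were called, at 0.70 (adjusted p = 0.0059) and 0.62 (adjusted p = 0.00282). TLR2.CD86 stood 0.15 above Pam2CSK4 (adjusted p = 0.872) and 0.23 above anti-CD86 (adjusted p = 0.755). The combined effect minus the sum of both single effects was -0.35 for anti-CD86 (adjusted p = 0.969) and -0.40 for anti-CD40 (adjusted p = 0.318). With slide as a block that for anti-CD40 was -0.63 (adjusted p = 0.0207). The order of the group means was therefore unstimulated, anti-CD86, Pam2CSK4, TLR2.CD86, anti-CD40 and anti-CD40+Pam2CSK4, and TLR2.CD86 did not differ from Pam2CSK4 or anti-CD86 beyond the spread. Pam2CSK4 with anti-CD86, TLR2.CD86 with anti-CD40 and the 2 groups with anti-CD40 were not compared. The comparisons with unstimulated cells share the same 2 control arrays.

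**Figure D3:**
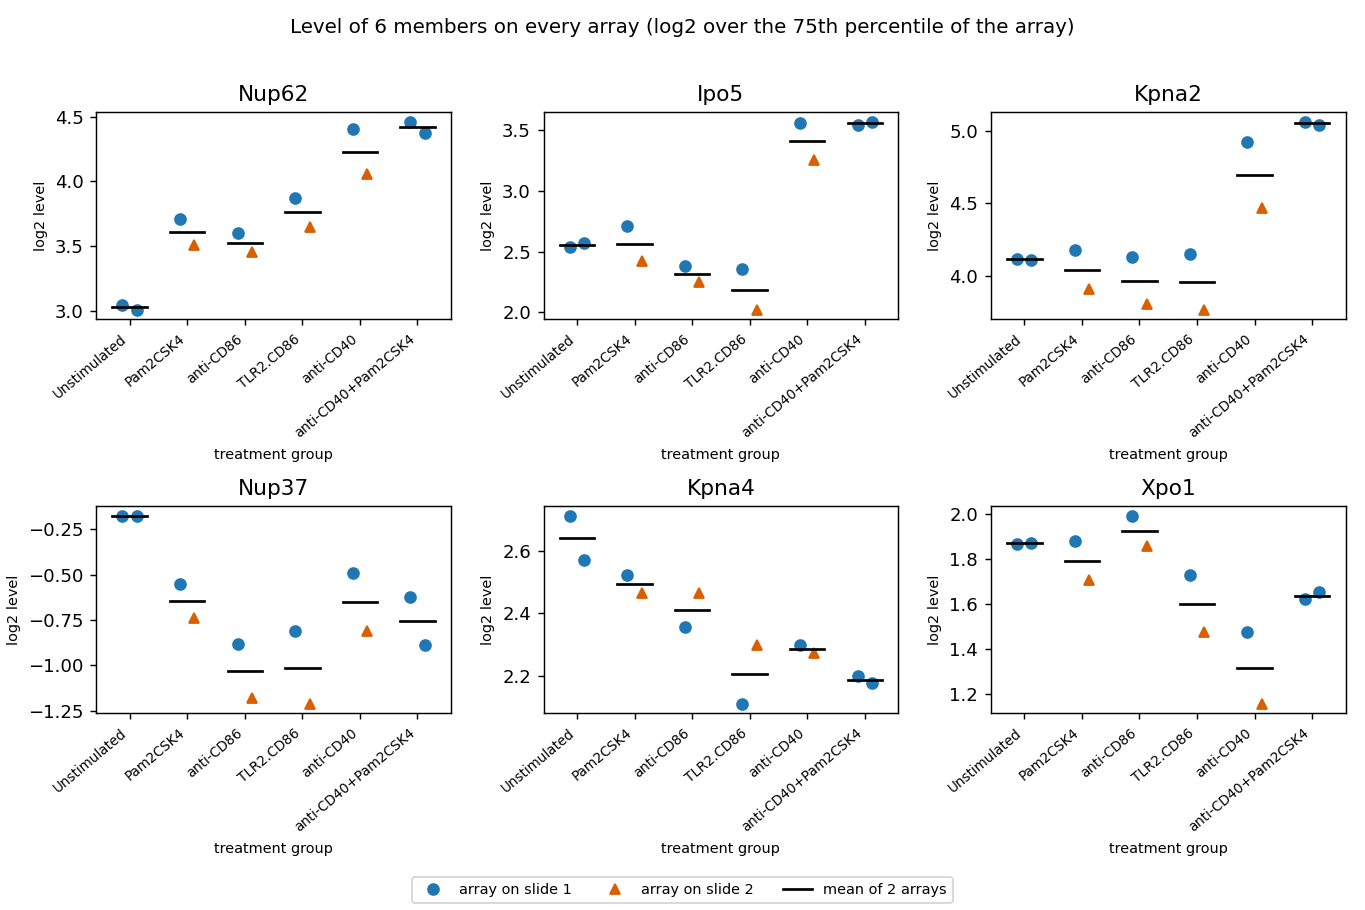
Level of 6 genes on each array (y axis: log2 processed signal over the 75th percentile of the array), by treatment group, with circles for slide 1, triangles for slide 2 and a line at the mean of 2 arrays. Nup62, Ipo5 and Kpna2 are highest with anti-CD40 and anti-CD40+Pam2CSK4, Nup37 is highest in unstimulated cells, and Xpo1 is lowest with anti-CD40.

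Anti-CD40+Pam2CSK4 gave the widest response. Relative to unstimulated cells 12 of 39 genes were called, or 30.8%, against 18.2% of all probes, of which 10 were higher (8.52% of all probes) and 2 were lower (9.65% of all probes). The genes that rose were Nup62, Nup98 and Nup54 of the channel, the importin alpha genes Kpna2, Kpna3 and Kpna6, Ipo5, Ipo4, Xpo4 and Xpot, and those that fell were Kpna4 and Ipo9. The median difference over the 39 genes was 0.19, against 0.01 over all probes, and 22 of the 39 were above 0. The excess of the median over that of all probes was 0.18 with each array centred on its median, 0.19 after quantile normalization, 0.18 in the authors' table and 0.07 with normexp background correction, and -0.0015 when dim probes were kept, since the median of all probes was then 0.19.

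Nup62, Nup98 and Nup54 of the channel rose, while Nupl1, another partner of Nup62, differed by -0.06 (adjusted p = 0.873). Nup98, a channel nucleoporin that also takes part in RNA export, rose by 0.62 ± 0.15 (adjusted p = 0.0255), from 1.79 and 1.77 to 2.41 and 2.39. Nup54, a partner of Nup62 in the channel, rose by 0.41 ± 0.095 (adjusted p = 0.0224), from 2.79 and 2.84 to 3.25 and 3.19. None of 6 Y-complex genes, 5 inner ring genes, 2 nuclear basket genes or 2 genes of the cytoplasmic face was called by its brightest probe. Both basket genes were called higher by their dimmest probe, Nup153 at 0.75 (adjusted p = 0.0198) and Nup50 at 0.58 (adjusted p = 0.0162). With slide as a block Nup37 of the Y-complex (-0.58, adjusted p = 0.00334), Nup188 and Nup35 of the inner ring (0.68 and 0.21, adjusted p = 0.0431 and 0.0477) and Nup153 and Nup50 of the basket (0.29 and 0.40, adjusted p = 0.00418 and 0.00411) were called. The Y-complex genes ranged from -0.58 to 0.04 and the inner ring genes from -0.13 to 0.68. Limma's unadjusted p was under 0.05 for 1 gene of each, and for 10721 of 31601 probes. Whether the channel differed from the scaffold was not tested.

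Of the 5 tested importin alpha genes 3 rose and 1 fell. Kpna2 encodes an importin alpha that is abundant in dividing cells. It read 4.11 and 4.11 in unstimulated cells and 5.06 and 5.04 with anti-CD40+Pam2CSK4, a rise of 0.94 ± 0.20 (adjusted p = 0.0165). Kpna3 rose by 0.68 ± 0.18 (adjusted p = 0.0322), from 1.38 and 1.61 to 2.10 and 2.25, and Kpna6 by 0.47 ± 0.12 (adjusted p = 0.0339), from 2.74 and 2.75 to 3.21 and 3.22. Kpna4, the importin alpha closest in sequence to Kpna3, went the other way. Its level was 2.71 and 2.57 in unstimulated cells and 2.20 and 2.18 with anti-CD40+Pam2CSK4, and it fell by 0.46 ± 0.11 (adjusted p = 0.0273). Kpna1 read 4.09 and 4.16, against 3.94 and 3.97, and was not called.

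Among 8 importin beta family genes 2 rose and 1 fell. Ipo5, a carrier of ribosomal proteins and histones, stood at 2.54 and 2.57 in unstimulated cells and at 3.55 and 3.57 with anti-CD40+Pam2CSK4, a rise of 1.01 ± 0.16 and a 2.01-fold higher signal (adjusted p = 0.00529). Ipo4, which carries histones and ribosomal proteins, rose by 0.84 ± 0.18 (adjusted p = 0.0177), from 1.79 and 1.89 to 2.69 and 2.66. Ipo9 was a dim probe, at -2.54 and -2.65 against -3.30 and -3.88, and its fall of 1.00 ± 0.27 (adjusted p = 0.0353) includes 1 anti-CD40+Pam2CSK4 array that was not well above background. Kpnb1, importin beta itself, was at 3.19 and 3.01, against 3.06 and 3.08, and was not called.

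The exportins that rose were Xpo4 and Xpot, 2 of 6. Xpot, the exportin of tRNA, rose by 0.51 ± 0.11 (adjusted p = 0.0146), from 1.88 and 1.83 to 2.36 and 2.37. Xpo4, which exports the translation factor eIF5A, rose by 0.83 ± 0.24 (adjusted p = 0.0478), from -2.27 and -2.26 to -1.51 and -1.36. Xpo1, the general exportin of proteins with a leucine-rich signal, was at 1.87 and 1.87, against 1.62 and 1.65, and was not called (-0.23, adjusted p = 0.313), but was called with slide as a block (adjusted p = 0.018).

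This comparison lies within slide 1, and its 12 called genes were also called, in the same direction, with slide as a block, when 25 of 39 genes and 47.4% of all probes were called. Among the 13 added were Nup37, Nup188, Nup35, Nup153, Nup50 and Xpo1. Without 1 unstimulated array, or without 1 anti-CD40+Pam2CSK4 array, 2 or 3 genes were called, against 6.05% to 7.33% of all probes, and none after centring on the median, against 1.47% of all probes.

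**Figure D4:**
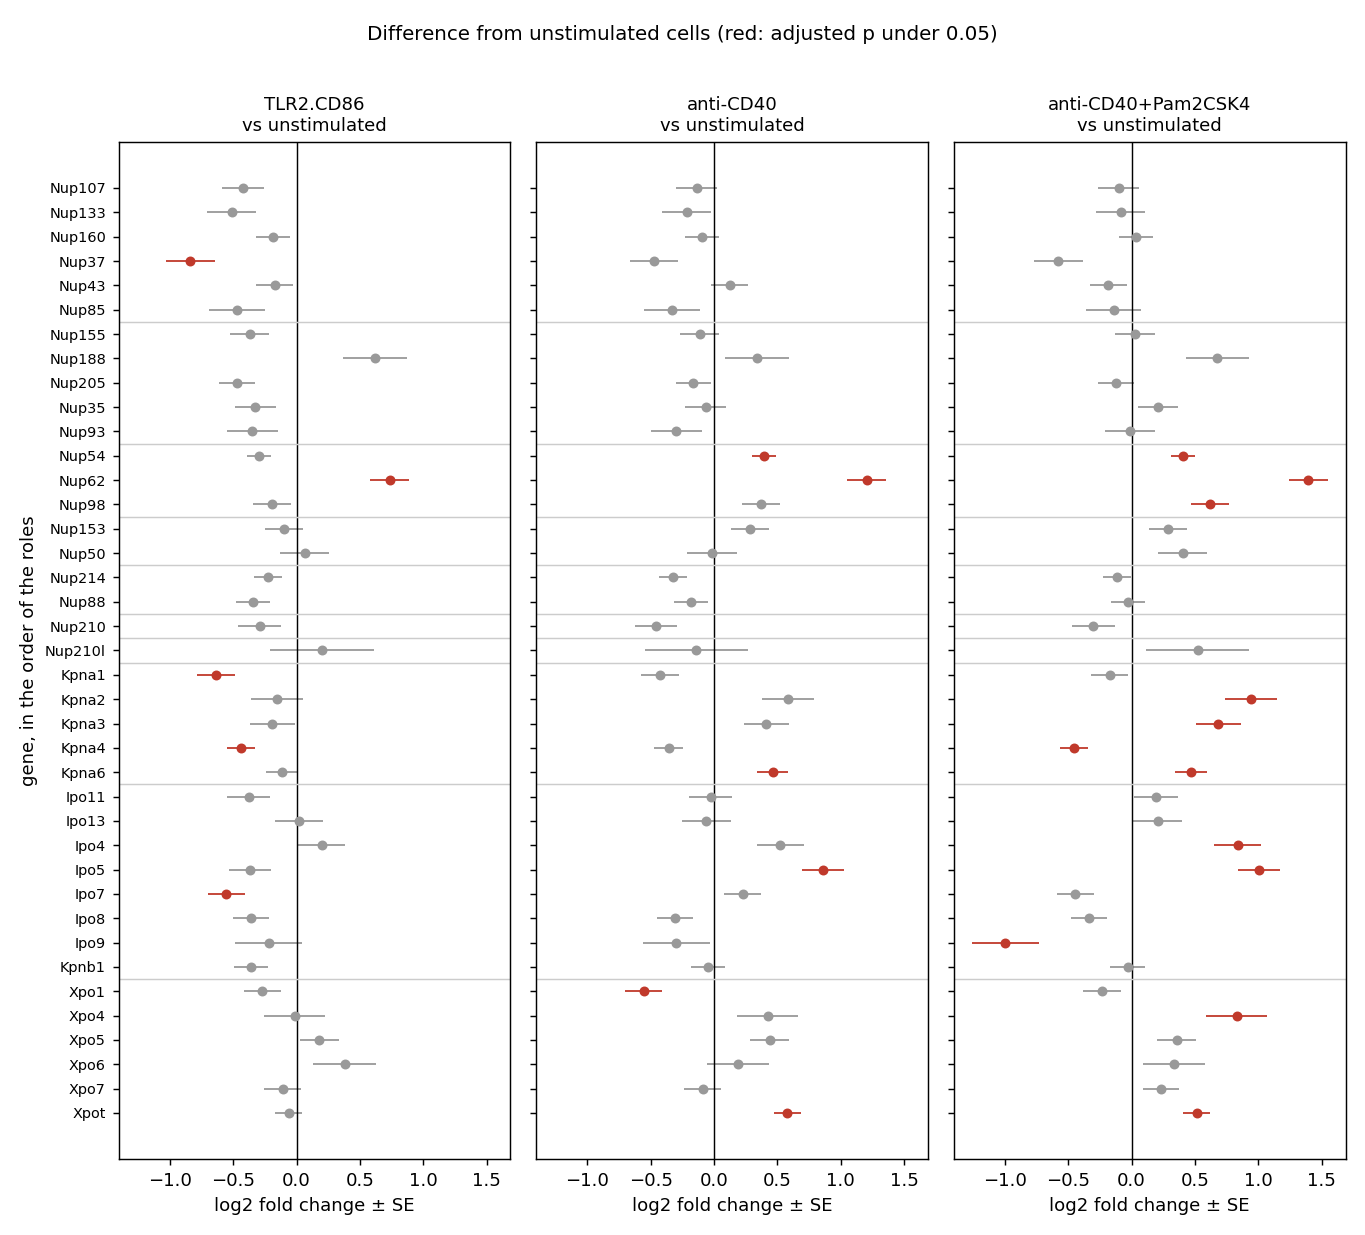
Log2 fold change against unstimulated cells (x axis, point with standard error, limma) of 39 genes (y axis, in the order of their roles) with TLR2.CD86, anti-CD40 and anti-CD40+Pam2CSK4. Red points had an adjusted p under 0.05 and number 5, 6 and 12.

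Anti-CD40 alone changed 6 of 39 genes, or 15.4%, against 16.7% of all probes. The 5 that rose (6.15% of all probes were called higher) were Nup62, Ipo5, Xpot, Kpna6 and Nup54, and the gene that fell (10.6% of all probes) was Xpo1. Ipo5 stood at 3.56 and 3.26 with anti-CD40, a rise of 0.86 ± 0.16 (adjusted p = 0.0148). Xpot was at 2.52 and 2.35 and rose by 0.58 ± 0.11 (adjusted p = 0.0133). Kpna6, at 3.29 and 3.12, rose by 0.46 ± 0.12 (adjusted p = 0.04), and Nup54, at 3.24 and 3.17, by 0.40 ± 0.095 (adjusted p = 0.0301).

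Xpo1 fell with anti-CD40 by 0.56 ± 0.15 (adjusted p = 0.0388). Both of its anti-CD40 arrays, at 1.47 and 1.15, lay below both unstimulated arrays. On slide 1 the single anti-CD40 array differed from the mean of the unstimulated arrays by -0.40. Kpna2 and Ipo4 had differences of 0.58 (adjusted p = 0.0846) and 0.52 (adjusted p = 0.0883), which were called with slide as a block, at 0.76 (adjusted p = 0.000418) and 0.68 (adjusted p = 0.0006). The slide block gave 19 genes, 13 higher and 6 lower, against 37.1% of all probes, and these included all 6. The median over the 39 genes was -0.06 (-0.01 over all probes) and with slide as a block 0.10. Without 1 unstimulated array 1 gene was called, against 1.82% to 1.93% of all probes. Without the slide 2 anti-CD40 array, 1 anti-CD86 array or 1 anti-CD40+Pam2CSK4 array 3 were called, against 6.03%, 12.4% and 9.88%, and without 1 Pam2CSK4 array 4, against 14.4%. After centring on the median none was called, against 1.1% of all probes, and the differences of Kpna6 and Nup54 turned to -0.11 and -0.17.

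With TLR2.CD86 5 of 39 genes were called, or 12.8%, which is near the 10.6% of all probes. Only Nup62 rose (3.39% of all probes were called higher), and Nup37, Kpna1, Ipo7 and Kpna4 fell (7.24% of all probes). The median difference was -0.22, against -0.03 over all probes, and 8 of the 39 were above 0. This shortfall against all probes was -0.19 with each array centred on its median, -0.13 after quantile normalization, -0.16 with normexp, -0.14 with slide as a block, -0.15 on slide 1 alone and -0.11 when dim probes were kept. The median itself was -0.14 without the slide 2 TLR2.CD86 array and -0.34 without the slide 1 TLR2.CD86 array.

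Nup37, a subunit of the Y-complex, had levels of -0.18 and -0.17 in unstimulated cells and -0.81 and -1.21 with TLR2.CD86. It fell by 0.84 ± 0.19 (adjusted p = 0.0341), with a difference of -0.69 under the slide block, and all 10 stimulated arrays lay below both unstimulated ones. All 6 Y-complex genes had a negative difference with TLR2.CD86, from -0.84 to -0.17, of which that of Nup37 was called. Kpna1, a widely expressed importin alpha, was at 4.09 and 4.16 in unstimulated cells and 3.60 and 3.38 with TLR2.CD86, and fell by 0.64 ± 0.15 (adjusted p = 0.0358).

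Kpna4 read 2.11 and 2.30 with TLR2.CD86 and fell by 0.44 ± 0.11 (adjusted p = 0.0467). Ipo7, another carrier of ribosomal proteins and of histone H1, fell by 0.55 ± 0.15 (adjusted p = 0.0496), from 0.18 and 0.27 to -0.32 and -0.33. On slide 1 the single TLR2.CD86 array differed from the mean of the unstimulated arrays by 0.85 for Nup62, -0.64 for Nup37, -0.53 for Kpna1, -0.55 for Ipo7 and -0.53 for Kpna4. The slide block gave 17 genes, 5 higher and 12 lower, against 34.9% of all probes, all 5 included. No gene was called without 1 unstimulated array, 1 anti-CD40+Pam2CSK4 array or the slide 2 TLR2.CD86 array, or after centring on the median, in fits that called 0.0918% to 3.98% of all probes. The count was 1 without the slide 1 TLR2.CD86 array (3.71% of all probes) or 1 anti-CD86 array (5.71%), and 2 without 1 Pam2CSK4 array (8.31%).

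Each single signal of that pair gave no call among these genes. With Pam2CSK4 limma called 0 of 39, against 0.136% of all probes. Its unadjusted p was under 0.05 for 5 of the 39, against 4966 of 31601 probes. The widest differences were those of Nup210l (-0.86, adjusted p = 0.344), a paralog of the membrane nucleoporin Nup210 with 1 Pam2CSK4 array not well above background, Ipo7 (-0.63, adjusted p = 0.139) and Nup62. The other probe of Nup210l gave 0.63 (adjusted p = 0.458), opposite to the brightest. With anti-CD86 limma also called 0 of 39, against 2.14% of all probes. Here the unadjusted p was under 0.05 for 6 of the 39, against 7321 of 31601 probes. The widest were Nup37 (-0.86, adjusted p = 0.0607), Nup188 of the inner ring (0.74, adjusted p = 0.136) and Nup62. With slide as a block 4 genes were called for Pam2CSK4, against 10.8% of all probes, and 8 for anti-CD86, against 28.3%, so neither count exceeds the share over all probes.

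TLR2.CD86 was not distinguished from either single signal. Against Pam2CSK4, 0 of 39 genes were called (0.0633% of all probes), and slide as a block gave 2 (10.7% of all probes). Without a block limma's unadjusted p was under 0.05 for 3 of the 39, against 3264 of 31601 probes. The widest difference was that of Nup210l, at 1.07 ± 0.41 (adjusted p = 0.421), which includes the 1 Pam2CSK4 array not well above background. Against anti-CD86, 0 were called (0.225% of all probes), and slide as a block gave 1 (7.53% of all probes). Without a block limma's unadjusted p was under 0.05 for 1 of the 39, against 2786 of 31601 probes. There the widest was Nup107 of the Y-complex, at -0.44 ± 0.16 (adjusted p = 0.488). For the combined effect minus the sum of the single effects, 0 genes were called both for anti-CD86 (0.019% of all probes) and for anti-CD40 (1.15% of all probes). By limma 0 and 4 had an unadjusted p under 0.05, against 1356 and 6084 of 31601 probes. With slide as a block 0 and 2 were called, against 0.234% and 8.4% of all probes.

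The 2 combinations, which share Pam2CSK4, differed more. In anti-CD40+Pam2CSK4 cells 8 of 39 genes stood above their level in TLR2.CD86 cells and none below, which is 20.5% called, against 12.2% of all probes (7.42% higher and 4.81% lower). They were Ipo5, Kpna2, Kpna3, Nup98, Nup54, Nup62, Kpna6 and Xpot. Ipo5 differed most, by 1.37 ± 0.16 (adjusted p = 0.00257), and by this probe its TLR2.CD86 arrays read 2.35 and 2.02, below both unstimulated arrays. By the second probe of Ipo5 the difference was 0.69 (adjusted p = 0.0156), and the mean was 1.21 with TLR2.CD86 and 1.12 in unstimulated cells. Kpna2, at 4.15 and 3.76 with TLR2.CD86, differed by 1.09 ± 0.20 (adjusted p = 0.0129), and Kpna3, at 1.52 and 1.08, by 0.88 ± 0.18 (adjusted p = 0.0175).

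Across the 39 genes 34 were above 0 in this comparison, with a median of 0.34, against 0.04 over all probes. The median was 0.24 with slide as a block and 0.20 without the slide 2 TLR2.CD86 array or on slide 1 alone, where 31 were above 0. The excess over all probes was 0.30, and 0.15 when dim probes were kept. For Kpna3 the difference from the single TLR2.CD86 array on slide 1 was 0.65. The slide block gave 20 genes, 18 higher and 2 lower, against 34.5% of all probes, all 8 included. Without either anti-CD40+Pam2CSK4 array or the slide 2 TLR2.CD86 array 2 were called, against 2.99% to 5.44% of all probes, and after centring on the median none, against 0.892%.

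Several genes had more than 1 probe, which gives a second reading of the same samples. Of 20 genes with several tested probes, 15 had all probes on the same side of 0 for anti-CD40+Pam2CSK4 against unstimulated cells, and this held for all 9 such genes whose brightest probe was called. For Kpna6 and Ipo4, which are among these 9, the second probe was too dim in unstimulated cells for its sign to count as agreement. Ipo5 was called by both probes (1.01 and 0.79), as was Kpna2 (0.94 and 0.72), and Nup98 by all 3 (0.62, 0.94 and 0.42). The second probe of Kpna6 was well above background on only 4 arrays and averaged -4.94 in unstimulated cells. The lowest level well above background on the 2 unstimulated arrays was -4.05 and -3.52. The difference from that Kpna6 probe therefore gives no second reading of the rise. Kpna4 was called by its first and second probe (-0.46 and -0.53), while the third gave -0.27. The other probes of Kpna3 (0.38 and 0.18, adjusted p = 0.112 and 0.539), Nup54 (0.31, adjusted p = 0.319) and Xpot (0.21, adjusted p = 0.292) lay on the same side of 0 and were not called. The second probe of Ipo4, also well above background on only 4 arrays, averaged -4.74 in unstimulated cells and gives no second reading either. The probes that gave a second call for Ipo5, Kpna2 and Kpna4 are printed with the brightest probes of Nup98 and Ipo4 and the probe of Nup37, because the first 3 repeat the call of the brightest probe, those of Nup98 and Ipo4 carry the call, and that of Nup37 carries the call with TLR2.CD86:
Ipo5 second probe: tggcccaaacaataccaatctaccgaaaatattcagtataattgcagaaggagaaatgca
Kpna2 second probe: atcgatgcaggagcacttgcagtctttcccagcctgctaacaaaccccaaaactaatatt
Kpna4 second probe: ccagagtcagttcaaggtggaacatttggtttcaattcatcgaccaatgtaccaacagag
Nup98 brightest probe: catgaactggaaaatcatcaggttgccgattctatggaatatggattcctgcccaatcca
Ipo4 brightest probe: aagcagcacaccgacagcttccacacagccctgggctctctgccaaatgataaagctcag
Nup37 probe: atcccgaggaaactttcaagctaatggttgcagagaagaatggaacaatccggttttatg

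Each of these 60-base probes, written 5′ to 3′ as in the array files, can be read in at least 1 frame without a stop codon.

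Probes of a gene did not always move together. For anti-CD40+Pam2CSK4 against TLR2.CD86 12 of the 20 genes had all probes on 1 side of 0. This held for 6 of the 7 genes with several tested probes whose brightest probe was called there. For TLR2.CD86 against unstimulated cells 8 of the 20 genes had all probes on 1 side of 0, and neither of the 2 genes with several tested probes whose brightest probe was called, Ipo7 and Kpna4, was among them. For Ipo7 the second, dimmer probe gave 0.37 (adjusted p = 0.379), opposite to the brightest. With slide as a block the 2 probes of Ipo7 were called in opposite directions, at -0.48 and 0.60 for TLR2.CD86 (adjusted p = 0.0178 and 0.0111) and at -0.44 and 0.71 for anti-CD40+Pam2CSK4 (adjusted p = 0.0137 and 0.00304). The same block called probes in opposite directions for Nup214 with anti-CD40 (-0.30 and 1.19) and for Nup155 between both combinations (0.28, 0.76 and -0.23). The third probe of Kpna4 gave 0.000901, with an adjusted p of 0.999. Nup153, a nuclear basket protein, gave -0.10 and -0.20 by its first and second probe and 0.69 (adjusted p = 0.0436) by the third, which was also called for anti-CD40+Pam2CSK4 at 0.75 (adjusted p = 0.0198). The dim second probe of Kpna6, well above background on 4 arrays, was too low in unstimulated cells to be set against the brightest, which gave -0.12. Without a block no gene was called in opposite directions by different probes. The dimmest Nup153 probe is printed because it departs from the other 2:
Nup153 dimmest probe: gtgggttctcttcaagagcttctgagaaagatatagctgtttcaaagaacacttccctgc

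**Figure D5:**
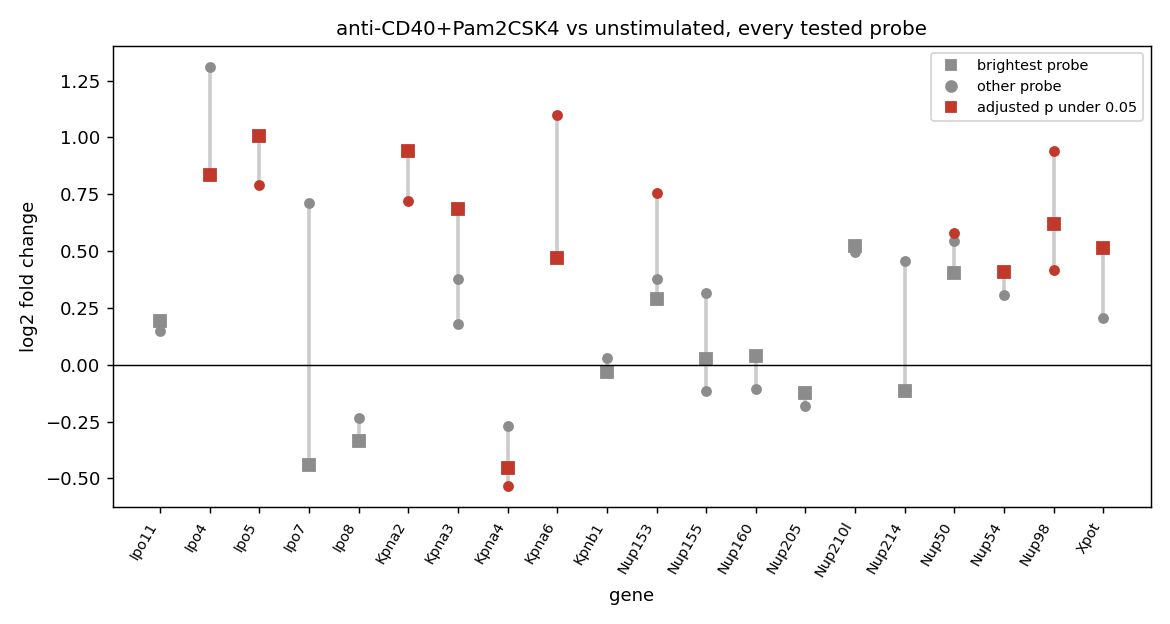
Log2 fold change of anti-CD40+Pam2CSK4 against unstimulated cells (y axis, limma) for every tested probe of the 20 genes with more than 1 (x axis). Squares are brightest probes, circles the others, red marks an adjusted p under 0.05, and grey bars join probes of a gene. All red points of a gene lie on the same side of 0, and the probes of Ipo7 lie on opposite sides.

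By role, the mean levels over all arrays of the brightest and dimmest probes are given without a comparison between genes. Nup85 and Nup43 of the Y-complex were at 5.33 and -1.87, and Nup35 and Nup188 of the inner ring 3.26 and -2.03. Nup153 and Nup50 of the basket were at 5.58 and 4.08, and Nup88 and Nup214 of the cytoplasmic face at 5.10 and 4.22. Xpo7, an exportin of broad specificity, averaged 2.38. The median standard deviation between the 2 arrays of a group, over the 39 genes, was 0.028 for unstimulated and 0.030 for anti-CD40+Pam2CSK4 cells and 0.12 to 0.21 in the groups split over slides.

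Other parts of the pathway were read from a list of 42 gene symbols of the Ran cycle, further importin beta relatives, further pore proteins and mRNA export, of which 39 were on the array and 38 were tested. With anti-CD40+Pam2CSK4 9 were called, 7 higher and 2 lower, or 23.7%, against 18.2% of all probes, and the median difference over the 38 was 0.23. The slide block gave 26, against 47.4% of all probes. In the Ran cycle 4 of 6 rose, namely Ran, Rcc1, Rangap1 and Ranbp1. Those with the highest rise on the list were Rangap1, the activator of the GTPase Ran (0.92 ± 0.23, adjusted p = 0.0282), Nxf1, the carrier of mRNA (0.89 ± 0.14, adjusted p = 0.00498), and Pom121, a membrane protein of the pore (0.77 ± 0.12, adjusted p = 0.00478). Tnpo2 and Tnpo1, importins for RNA-binding proteins, fell by 1.27 ± 0.19 (adjusted p = 0.00359) and 0.69 ± 0.16 (adjusted p = 0.0232).

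Of the same 38 genes 2 were called with TLR2.CD86, both higher, or 5.26%, against 10.6% of all probes, and the median was -0.06. The slide block gave 14, against 34.9% of all probes. They were Nxf1, at 0.92 ± 0.14 (adjusted p = 0.0142), and Thoc2, a subunit of the THO complex that couples transcription to export (0.46 ± 0.12, adjusted p = 0.043). None of the 6 Ran cycle genes was called with TLR2.CD86. None had an unadjusted p under 0.05 by limma, against 9618 of 31601 probes.

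The promoters of these genes can be read from RefSeq sequence (GRCm38.p6), in which 32 of the 41 genes had a window of 250 bases before the annotated start. The motif GGGCGG, the site of Sp-type factors, occurred on either strand in 22 of the 32, against 35.4% of 27025 genes. CCAAT occurred in 18 of 32, against 37.5%, the E-box CACGTG in 5 of 32, against 6.86%, and the cAMP response element TGACGTCA in 2 of 32, against 1.77%. These are matches of letters and do not show that a factor was bound. The last 150 bases before the start are printed for the 3 genes that rose most with anti-CD40+Pam2CSK4, with GGGCGG and CCAAT, on either strand, in capitals:
Nup62, chr7:44815938-44816087, plus strand: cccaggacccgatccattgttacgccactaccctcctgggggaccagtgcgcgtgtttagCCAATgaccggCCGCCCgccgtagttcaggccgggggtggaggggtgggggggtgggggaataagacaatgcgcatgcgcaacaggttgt
Ipo5, chr14:120911044-120911193, plus strand: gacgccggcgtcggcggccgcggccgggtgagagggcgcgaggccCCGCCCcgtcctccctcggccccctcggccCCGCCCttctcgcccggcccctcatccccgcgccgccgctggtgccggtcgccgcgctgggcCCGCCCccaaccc
Kpna2, chr11:106999526-106999675, minus strand: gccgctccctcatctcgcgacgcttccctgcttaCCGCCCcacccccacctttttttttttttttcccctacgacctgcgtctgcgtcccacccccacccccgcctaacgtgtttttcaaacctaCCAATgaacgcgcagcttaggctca

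In these stretches Nup62 and Kpna2 had 1 match of each motif, and Ipo5 had 3 of GGGCGG and none of CCAAT. Ipo5 had a second annotated start, whose stretch held neither.

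The E-box was found in Ipo7, Nup188, Nup54, Nup93 and Xpot, and 2 of these, Nup54 and Xpot, were among the 7 genes with a window that rose with anti-CD40+Pam2CSK4. Their stretches are printed with that of Ipo7, which fell with TLR2.CD86, with CACGTG in capitals:
Nup54, chr5:92435267-92435326, minus strand: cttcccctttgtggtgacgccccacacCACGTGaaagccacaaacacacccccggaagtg
Xpot, chr10:121626531-121626582, minus strand: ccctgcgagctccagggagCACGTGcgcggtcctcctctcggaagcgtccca
Ipo7, chr7:110018151-110018210, plus strand: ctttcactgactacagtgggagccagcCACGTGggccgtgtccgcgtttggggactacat

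The motif began 100, 231 and 137 bases before the start of Nup54, Xpot and Ipo7, respectively.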

How the data were processed

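Total RNA was labelled with Cy3 and hybridised to a custom Agilent mouse array, and images were read with Agilent Feature Extraction. The authors deposited the scanner files, whose processed signal intensity was corrected for background within each array. They also deposited a table of log2 values, which equalled log2 of that intensity minus 1 constant per array. Control and outlier spots were left out and spots of a probe averaged. A probe was kept where every array of some group had it well above background, which left 31669 of 61307 probes, and 31601 of these had no missing value and were tested. No spot of a member gene was saturated.

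A linear model with a mean for each group was fitted to the 12 arrays in limma (version 3.58.1, R version 4.3.3), with empirical Bayes moderation and a moderated F test over the 6 groups. The fit was checked on simulated data for TLR2.CD86 against unstimulated cells alone, with changes added to 200 probes and no slide difference simulated. The other tests were not checked in this way. For each comparison with unstimulated cells the genes named were up to 5 highest and 5 lowest of those called and well above background on all arrays of the groups compared, or the 3 widest where fewer than 3 were called. For other comparisons these were up to 3 in each direction and the widest, and the brightest and dimmest of each role. Further called genes are named where a count is given. The genes and lists were chosen with earlier results of these data known. Alternatives were centring on the median, quantile normalization, normexp with an offset of 50, the authors' table, no filter on dim probes, a filter for all 12 arrays, slide or replicate number as a block, slide 1 alone, other probes of a gene, the methods' one way test, and each array left out. The slide 1 fit and both interactions were added after the data were seen. The array was annotated to mm9, so RefSeq GRCm38.p6 was used only for promoter sequences. Python 3.11.15 was used for tables.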

Additional observations from a re-analysis of the deposited data

How the results depend on the processing

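The counts of called genes, of 39, depended on the scaling and on how the slides were treated. With each array centred on its median, 0 genes were called for TLR2.CD86, anti-CD40 and anti-CD40+Pam2CSK4 against unstimulated cells, for anti-CD40+Pam2CSK4 against TLR2.CD86 and over the 6 groups, where it called 0.418%, 1.1%, 1.47%, 0.892% and 3.22% of all probes. That scaling moved the median of all probes to -0.32 for TLR2.CD86, -0.58 for anti-CD40 and -0.10 for anti-CD40+Pam2CSK4 against unstimulated cells. For anti-CD40 it reversed 2 named genes, Kpna6 (-0.11) and Nup54 (-0.17). The median intensity of the arrays was 17.3 to 51.2, where the lowest intensity well above background was 19.5 to 32.9. Without the filter on dim probes the same comparisons gave 0, 1, 2, 2 and 2 genes, against 0.0425%, 1.74%, 4.02%, 1.99% and 2.5% of all probes. The cause of these losses was not tested.

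With slide as a block the counts were 4 for Pam2CSK4, 8 for anti-CD86, 17 for TLR2.CD86, 19 for anti-CD40 and 25 for anti-CD40+Pam2CSK4 against unstimulated cells. They were 2 and 1 for TLR2.CD86 against Pam2CSK4 and anti-CD86, 20 for anti-CD40+Pam2CSK4 against TLR2.CD86, 2 for the interaction with anti-CD40 and 26 over the 6 groups. Over all probes the same fit called 10.8%, 28.3%, 34.9%, 37.1% and 47.4% in the comparisons with unstimulated cells and 59.9% over the 6 groups. On slide 1 alone they were 12 for anti-CD40, a single array there, and 20 for anti-CD40+Pam2CSK4, against 22.9% and 40.3% of all probes. Anti-CD40 gave 10 with normexp (19.1% of all probes) and 13 after quantile normalization (20.6%), anti-CD86 gave 1 under each of these and under the filter for all 12 arrays (4.49%, 5.53% and 5.28% of all probes), and Pam2CSK4 gave 1 after quantile normalization (0.332%). The authors' table gave the same count as the values used here in every comparison, and the methods' one way test, with Benjamini-Hochberg adjustment, called 9 genes over the 6 groups, against 18.2% of all probes. The 20 called differences of named genes, against unstimulated cells or TLR2.CD86, kept their call and direction in the authors' table, with normexp, with the filter for all 12 arrays and with either block. Of these 20, 17 did so after quantile normalization, 19 with the median over the probes of a gene and 4 without the filter on dim probes.

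Leaving out each array in turn gave 0 to 6 genes for TLR2.CD86, 1 to 7 for anti-CD40 and 2 to 12 for anti-CD40+Pam2CSK4 against unstimulated cells, 2 to 11 for anti-CD40+Pam2CSK4 against TLR2.CD86 and 3 to 11 over the 6 groups. The shares of all probes moved too, over 0.0918% to 14.6%, 1.82% to 23%, 6.05% to 20.9%, 2.99% to 14.4% and 6.74% to 24.7%. The lone array left in a group was assumed to vary like the other groups.

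The replicate number as a block gave 4 genes for anti-CD86, 8 for TLR2.CD86 and 14 for anti-CD40 against unstimulated cells, 15 for anti-CD40+Pam2CSK4 against TLR2.CD86 and 17 over the 6 groups, against 12.6%, 24.5%, 29.8%, 21.2% and 37.3% of all probes. The deviations of same-numbered arrays correlated at 0.54 to 0.67 among the 4 groups split over slides and at -0.11 to 0.07 in pairs with unstimulated or anti-CD40+Pam2CSK4 cells, so the numbers do not pair the samples of all groups. In those 4 groups same-numbered arrays also share a slide, and number and slide cannot be told apart there.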
